A study of Mus musculus with 2 samples.

Results

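Iron handling and heme breakdown were followed in bone marrow through 7 genes of the 31053 in the deposited feature lists. They were chosen by symbol for their known roles in iron storage, iron transport and heme recycling. The rule used no measured value, but the choice was made with earlier results of these data known. The genes are Hmox1 and Blvrb for heme breakdown, Fth1 and Ftl1 for storage, Tfrc and Slc11a1 for uptake, and Slc40a1 for export, and all 7 were found. The marrow came from C57BL/6 mice aged 6 months with an atherosclerosis label. The tested genotype was Apoe(-/-) with Itgb3(-/-), called the Itgb3 null library here, and its control was Apoe(-/-) with Itgb3(+/+). Apoe, which encodes a carrier of blood lipids, was therefore deleted in both groups. Itgb3 encodes the beta chain of an integrin carried by platelets, megakaryocytes, osteoclasts and macrophages. Each genotype was 1 single-cell library made with 10x 3′ chemistry, and how many animals went into a library is not stated by the labels. Genotype, library and depth cannot be told apart, so values are set side by side with counting intervals and no p-value is given.

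Iron in the marrow moves in a cycle between red cell precursors and macrophages. Erythroblasts take up transferrin-bound iron through the receptor encoded by Tfrc and build it into heme. Macrophages of the erythroblastic islands clear expelled nuclei and worn red cells, and heme oxygenase 1, the product of Hmox1, opens the heme ring to free iron, carbon monoxide and biliverdin, which biliverdin reductases turn into bilirubin. Blvrb encodes the B form of those reductases, which acts on the beta isomer and also reduces flavins and is abundant in red cells. Freed iron is stored inside shells of ferritin, built from a heavy chain (Fth1) that oxidises iron and a light chain (Ftl1) that helps it form the mineral core. Ferroportin (Slc40a1) is the known exporter of iron from cells, and Nramp1 (Slc11a1) is known as a pump of divalent metal out of the phagosomes of macrophages and neutrophils. Whether Nramp1 is active in the mice used here was not measured.

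Translation or stability of some of these messages is known to be set by iron-responsive elements, short hairpins with a 6-base loop to which the iron regulatory proteins bind. They are shown because they divide the 7 genes into messages that carry this element and messages in which the search found none, while the counts below measure message only. The hairpins were found by a pattern search in GENCODE vM21 transcripts on the GRCm38 build. The pattern was the loop CAGTGN on the sense strand, with N any base but G, closed by 5 paired bases above an unpaired C. G-T pairs counted as paired. The hairpins are written 5′ to 3′ in DNA letters with the loop in capitals. The Fth1 element lies in the 5′ UTR at chr19:9982732-9982761 (plus strand), the Ftl1 element in the 5′ UTR at chr7:45459778-45459807 (minus strand) and the Slc40a1 element in the 5′ UTR at chr1:45925464-45925493 (minus strand). The 4 Tfrc elements lie in the 3′ UTR at chr16:32631219-32631248, chr16:32631598-32631627, chr16:32631663-32631692 and chr16:32631710-32631739 (plus strand).
Fth1: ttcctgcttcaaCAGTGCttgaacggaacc
Ftl1: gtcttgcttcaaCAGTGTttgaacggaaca
Slc40a1: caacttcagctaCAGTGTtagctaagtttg
Tfrc element 1: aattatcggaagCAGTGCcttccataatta
Tfrc element 2: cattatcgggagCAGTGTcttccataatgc
Tfrc element 3: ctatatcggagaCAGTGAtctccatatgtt
Tfrc element 4: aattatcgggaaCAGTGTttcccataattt
The same search found the pattern in the 5′ UTR of 23 of 20916 genes (0.110%) and in the 3′ UTR of 100 of 21039 genes (0.475%). It found none in Hmox1, Blvrb or Slc11a1, which says only that this pattern is not in those annotated UTRs.

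The genes lie on 5 chromosomes of GRCm38. Hmox1 (ENSMUSG00000005413) spans chr8:75093621-75100589, Tfrc (ENSMUSG00000022797) spans chr16:32608920-32632794 and Fth1 (ENSMUSG00000024661) spans chr19:9980598-9985098, all on the plus strand. Blvrb (ENSMUSG00000040466) at chr7:27447978-27466144 and Slc11a1 (ENSMUSG00000026177) at chr1:74375195-74386062 are also on the plus strand. Ftl1 (ENSMUSG00000050708) at chr7:45457944-45459884 and Slc40a1 (ENSMUSG00000025993) at chr1:45908068-45926523 are on the minus strand. Ftl1 has a near-identical copy, Ftl1-ps1, whose counts were 0.312 to 1.41% of the Ftl1 counts over the classes.

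The null library held 4281 barcodes and 44694854 unique molecular identifiers (UMIs, each a counted message), the control library 12764 barcodes and 79192158 UMIs. After filters and removal of likely doublets, 2903 null cells (median 9321 UMIs) and 8595 control cells (median 4812 UMIs) remained, and 6 barcodes were shared between them. Cells were grouped by clustering without the 7 genes and named from fixed markers as X-like. Of 126 sub-clusters, 121 drew at least 90% of their cells from 1 library, so a named class in the null library and the same class in the control library usually sat in different sub-clusters. The null classes were also led by immune-response genes, among them Saa3, Il1rn and Ccl2 in monocyte-like cells and Cxcl2, Cd14 and Il1r2 in neutrophil-like cells. Macrophage-like cells (149) and mature neutrophil-like cells (1313) were found only among the control sub-clusters. Another control sub-cluster of 37 cells, led by C1qa, C1qb, Fcna and Vcam1, scored highest for erythroid markers and was left unnamed. Its cells are outside the macrophage-like levels. Itgb3 itself was at 7.39 counts per 1000000 UMIs (CPM) in the null library and 23.6 CPM in the control library, and Apoe at 62.0 and 98.4 CPM, but 3′ counts outside a deleted stretch do not check the genotype.

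Across 11 classes that had at least 50 cells in both libraries, the 7 genes gave 77 pairs of gene and class. A pair was called when its CPM, from UMIs summed over the class, differed at least 2-fold, provided that 1 of the libraries reached 50 CPM and both together held 30 UMIs. By that rule 10 pairs were higher in the null library, 15 were lower, 18 lay within 2-fold and 34 had too few counts. With class totals as used here, the higher pairs were mostly in the monocyte, neutrophil and granulocyte lines and the lower ones mostly in the erythroid line. The erythroid majority depended on the scaling. Under TMM factors 8 pairs were lower, and the low, intermediate and high hemoglobin ranges of the erythroid line held 2, 2 and 0 of them. Over all genes of a class that had enough counts, the share called is given beside each count as its background.

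In monocyte-like cells 3 of 5 iron genes with enough counts were higher and 0 lower, against 15.3% of 3517 genes higher and 15.7% lower. Neutrophil-like cells without a stage had 3 of 5 higher and 1 lower, with 32.3% of 2311 genes higher and 9.82% lower. Of these 3, Slc11a1 was near the 2-fold line and fell to 1.96 without the richest cell of each library. Immature neutrophil-like cells had 1 of 3 higher and 1 lower, with 11.5% of 2047 genes higher and 12.0% lower. Granulocyte-monocyte progenitor-like (GMP-like) cells had 2 of 3 higher, with 9.43% of 2852 genes higher and 7.05% lower. Of these 2, Hmox1 rested on 1 null cell with 215 of 249 null UMIs, and had too few counts without the richest cell of each library. In contrast, erythroid-like cells with little hemoglobin had 2 of 5 lower and 0 higher (background 8.35% higher and 12.4% lower of 3113 genes). In the intermediate hemoglobin range 6 of 6 were lower (background 13.4% higher and 27.1% lower of 2236 genes). The high range had 3 of 4 lower (background 24.4% higher and 28.4% lower of 718 genes), a range in which called genes were common in both directions. Stem and progenitor-like cells had 1 of 3 lower (background 9.16% higher and 10.2% lower), B precursor-like cells 0 of 4 in either direction (8.80% higher and 9.12% lower), mature B-like cells 1 of 3 lower (11.3% higher and 13.4% lower) and T-like cells 1 of 2 higher (10.8% higher and 11.9% lower). Summed over all kept cells, 1 of 6 was higher and 3 lower (7.88% and 12.1% of 2717 genes).

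The median log2 ratio of the called and uncalled iron genes with enough counts was 1.32 in monocyte-like cells, where the median of all genes was -0.13. It was 2.40 in GMP-like cells (all genes -0.01), 1.01 in neutrophil-like cells without a stage (all genes 0.52) and 0.34 in immature neutrophil-like cells (all genes -0.08). The GMP-like median included Hmox1, whose call rested on 1 null cell, and the 1.01 was the value of Slc11a1. In the low, intermediate and high hemoglobin ranges the median of the iron genes was -0.92, -1.60 and -1.13, against -0.19, -0.25 and -0.43 for all genes. Scaling by TMM factors moved the median of all genes to 0.34 in the intermediate range and 0.41 in the high range, and the number of iron genes called lower to 2 in each of the low and intermediate ranges and 0 in the high range. In the intermediate range Blvrb and Ftl1 stayed called, and Hmox1 (2.81-fold lower) and Slc40a1 (2.33-fold lower) stayed past 2-fold but under the CPM minimum. Relative to the median of all genes, the 6 iron genes of the intermediate range stood between -1.04 and -1.69 on the log2 scale.

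**Figure D1:**
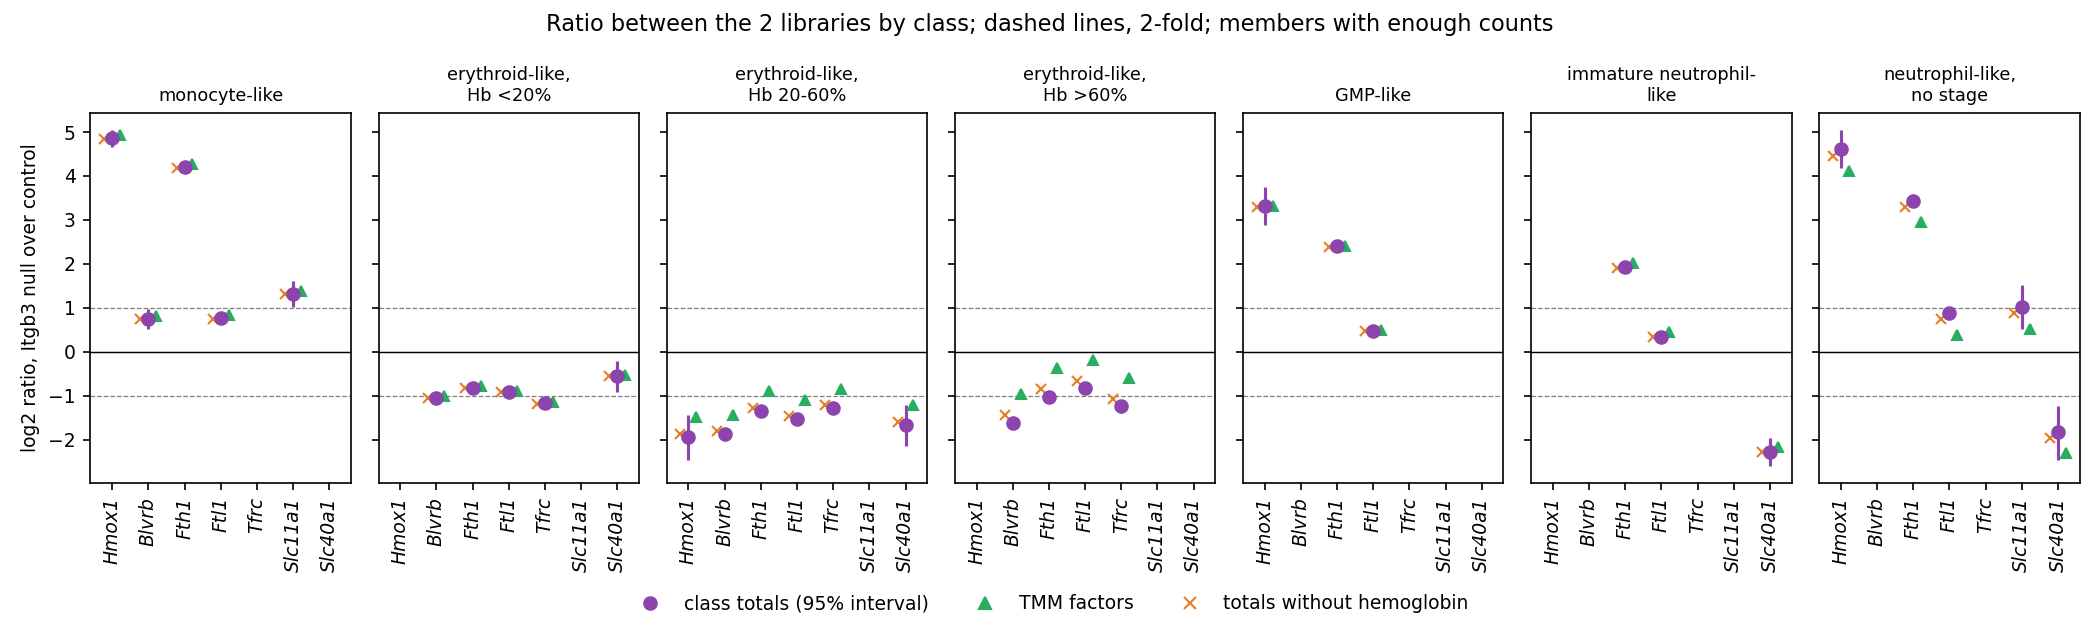
The log2 ratio of CPM, Itgb3 null over control, is plotted for each iron gene with enough counts in 7 classes, with circles for class totals (bars, 95% counting interval), triangles for TMM factors, crosses for totals without hemoglobin and dashed lines at 2-fold. Points sit above 0 for Hmox1 and Fth1 in monocyte-like cells (4.86 and 4.21) and below 0 for all 6 genes shown in erythroid-like cells of the intermediate hemoglobin range.

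Hmox1, the enzyme that opens heme, was highest in different cells in the 2 libraries. In the null library it was at 1281 CPM (95% Poisson interval 1238 to 1325, from 3375 UMIs) in monocyte-like cells, 637 CPM (586 to 691) in neutrophil-like cells without a stage and 74.4 CPM in GMP-like cells, and at most 22.0 CPM in each other class compared. The control library had 1527 CPM (1442 to 1616) in macrophage-like cells, followed by 70.5 CPM in mature neutrophil-like cells, 55.0 CPM in erythroid-like cells of the intermediate range and 44.2 CPM in monocyte-like cells. These 3 control neighbours did not each differ from the next beyond their counting intervals. Over all cells Hmox1 was at 135 CPM in the null library and 52.0 CPM in the control library (2.60-fold, interval 2.48 to 2.72).

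In monocyte-like cells Hmox1 was at 1281 CPM over 180 null cells, against 44.2 CPM (38.8 to 50.1, from 245 UMIs) over 578 control cells, a ratio of 29.0 (25.5 to 33.2). The null UMIs were concentrated: 7 of 180 null cells (3.89%) held 50% of them, against 61 of 578 control cells (10.6%). The richest null cell had 389 Hmox1 UMIs, the richest control cell 5, and without the richest cell of each library the ratio was 26.4. By cell, the median was 118 CPM and the 90th percentile 6559 CPM in null cells, and 0 and 196 CPM in control cells. The 3 null sub-clusters lay at 16.3, 1045 and 2294 CPM, and the 7 control sub-clusters between 0 and 111 CPM, so the groups overlapped through 1 null sub-cluster.

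Depth differed as well, with a median of 13300 UMIs per null and 7787 per control monocyte-like cell. With each cell thinned to 1000 UMIs, 48 of 156 null cells (30.8%, Clopper-Pearson interval 23.6 to 38.7%) and 35 of 574 control cells (6.10%, 4.28 to 8.38%) had an Hmox1 UMI, against 66.1% and 31.7% unthinned. T-like cells, which should lack the gene, gave 0.746% of 134 null cells and 0.980% of 204 control cells after the same thinning, from median depths of 7010 and 3489 UMIs. Macrophage markers moved with this gene in the class sums: the list summed to 427 CPM in null and 84.6 CPM in control monocyte-like cells. C1qa was at 42.9 and 6.13 CPM and Spic at 44.8 and 0.902 CPM. Adgre1, at 56.2 and 52.1 CPM, and Mrc1, at 3.80 and 3.43 CPM, differed little. The monocyte markers ran the other way, at 4340 CPM in null and 7720 CPM in control cells, with Ccr2 at 241 and 889 CPM. The part of this difference in makeup in the Hmox1 ratio was not tested.

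Neutrophil-like cells without a stage had Hmox1 at 637 CPM over 141 null cells (578 UMIs) and 26.2 CPM over 380 control cells (50 UMIs), a ratio of 24.3 (18.2 to 33.2). Here 3 null cells held 50% of the UMIs, and the richest held 162; without the richest cell of each library the ratio was 18.8. Thinned to 1000 UMIs, 24 of 138 null cells (17.4%) and 11 of 377 control cells (2.92%) had a UMI. With the mitochondrial limit set at 5% the log2 ratio was 1.59, and 4.6 at the limit used. Mature neutrophil markers summed to 13862 CPM in null and 34653 CPM in control cells of this class, whose stages were mixed and whose null cells all lay in 1 sub-cluster. Of the 10 macrophage markers, 7 were at 0 in the null cells of this class, and the list summed to 15.4 CPM in null and 27.2 CPM in control cells. In GMP-like cells the levels were 74.4 CPM in null and 7.52 CPM in control cells, but 1 null cell held 215 of the 249 null UMIs. Without the richest cell of each library the levels were 10.3 and 6.37 CPM and no longer passed the count minimum. Immature neutrophil-like cells had 22.0 CPM in the null and 26.3 CPM in the control library, under the 50 CPM minimum.

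**Figure D2:**
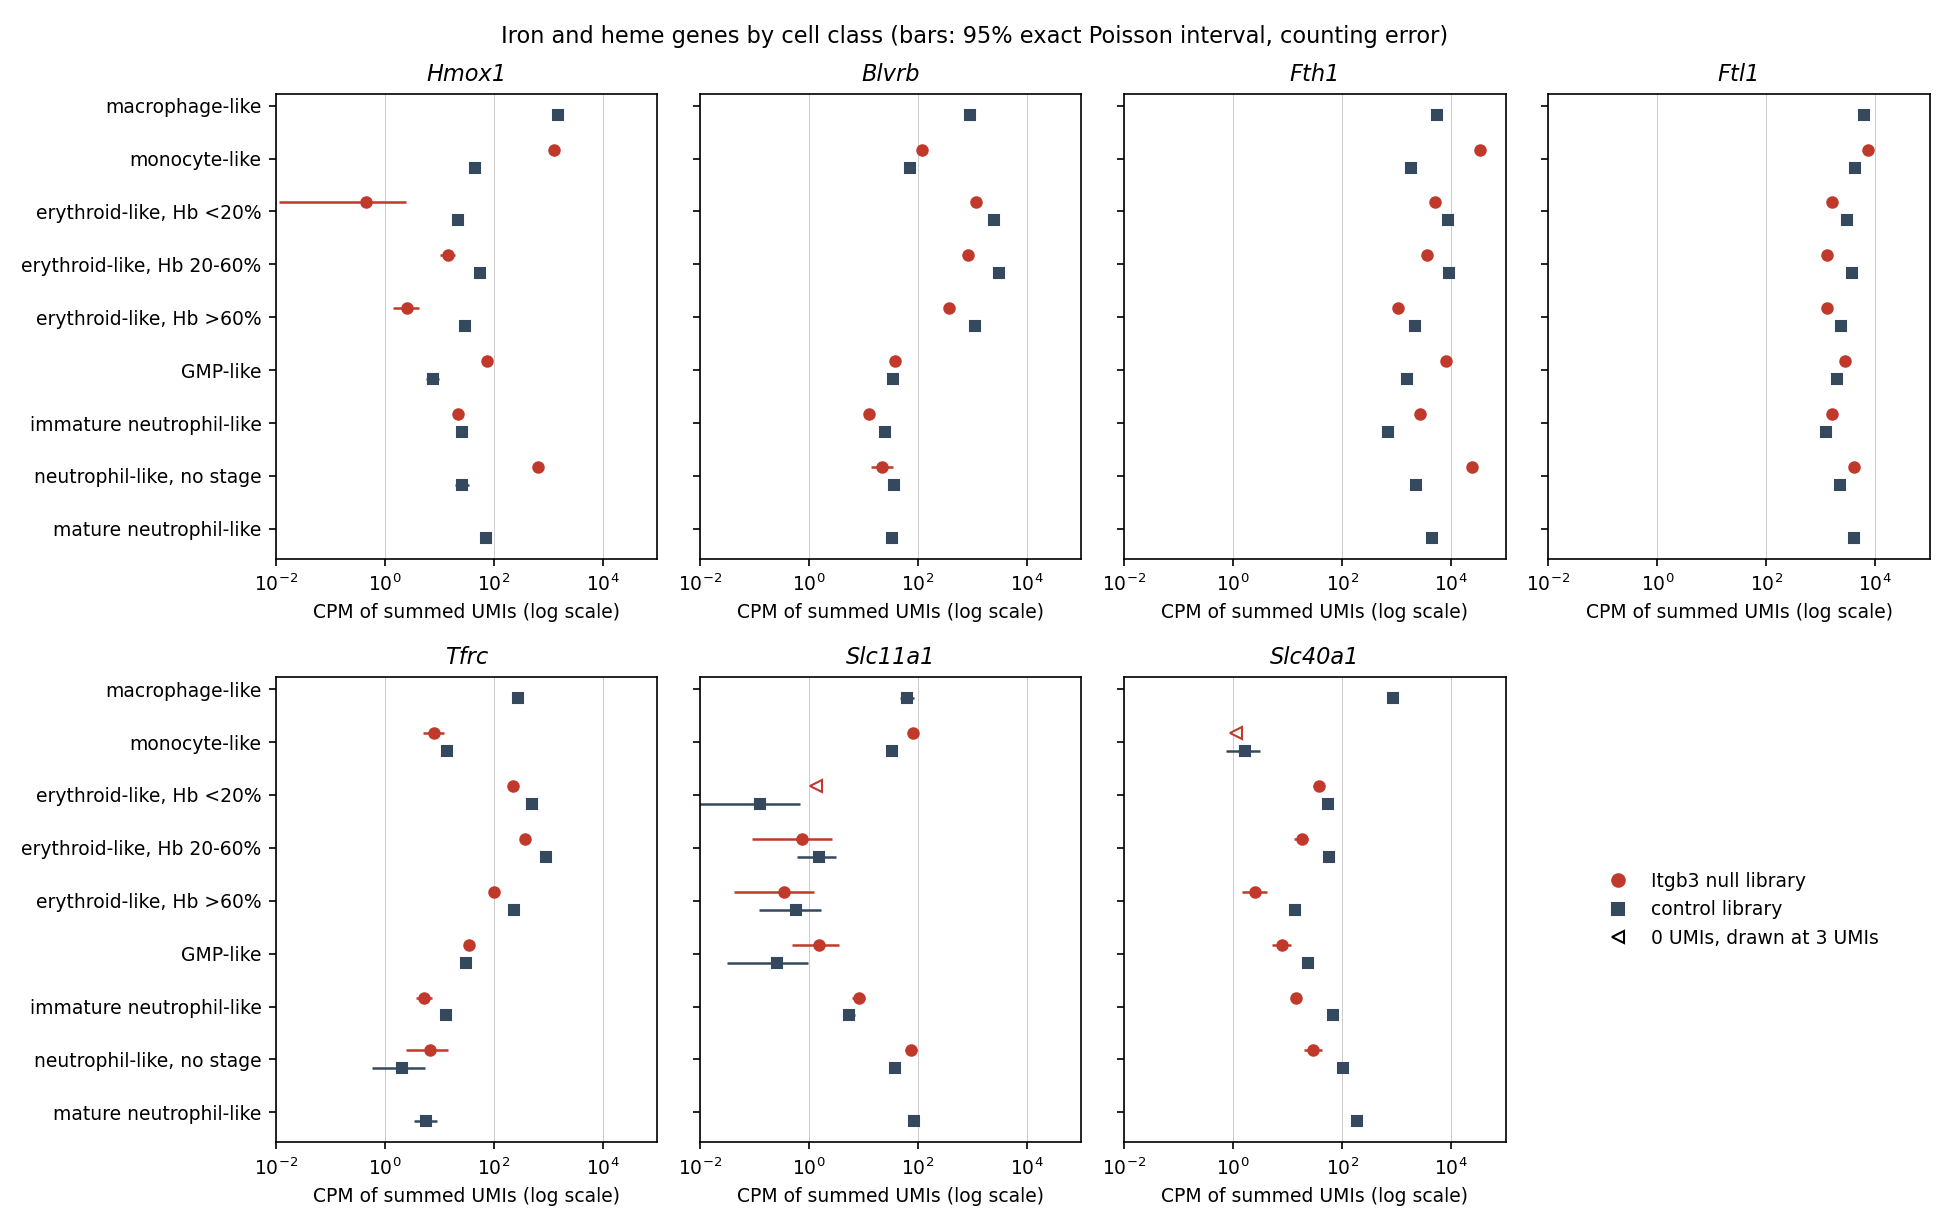
CPM of summed UMIs (log axis) is plotted for the iron genes by class, Itgb3 null and control side by side, with 95% exact Poisson bars. Hmox1 peaks in monocyte-like cells of the null library (1281 CPM) and in macrophage-like cells of the control library (1527 CPM), while Blvrb and Tfrc peak in erythroid-like cells of both libraries.

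In erythroid-like cells Hmox1 was low. The intermediate range had 14.3 CPM in the null library and 55.0 CPM in the control library (3.84-fold lower), and the low and high ranges had too few counts, at 0.444 and 2.56 CPM in the null and 21.8 and 28.9 CPM in the control library. Of the null UMIs in the intermediate range, 31 came from 1 cell, without which the level was 2.96 CPM. Macrophage marker UMIs moved with the gene here, being found in 11 of 264 null cells (4.17%) and 170 of 684 control cells (24.9%), with the list summing to 13.97 CPM in null and 135 CPM in control cells. Without all such cells Hmox1 was at 12.3 CPM in the null and 17.3 CPM in the control library, 1.40-fold lower and no longer called.

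Blvrb, the beta-type biliverdin and flavin reductase, was an erythroid-line message in both libraries and was lower in the null library at every hemoglobin range. The levels were 1178 CPM in null and 2447 CPM in control cells of the low range (2.08-fold lower), 839 and 3087 CPM in the intermediate range (3.68-fold lower) and 365 and 1117 CPM in the high range (3.06-fold lower). The high range was not uniform. Cells with 60 to 80% hemoglobin had 279 CPM in null and 1607 CPM in control cells. Those with 80 to 100% had 431 and 723 CPM, within 2-fold. By cell in the intermediate range, the 10th, 50th and 90th percentiles were 178, 695 and 1508 CPM in null cells and 1340, 2944 and 4425 CPM in control cells. The difference was thus present through the bulk of the cells rather than in a few. Without cells that held a macrophage marker UMI, the intermediate and high ranges gave 3.77-fold and 3.09-fold lower, and the low range 1.99-fold, just under the 2-fold line. In the high range TMM scaling gave 1.95-fold lower, also just under it.

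Outside the erythroid line, Blvrb was lower in the null library in mature B-like cells, at 53.9 CPM in null and 203 CPM in control cells (3.77-fold lower). In stem and progenitor-like cells it was at 25 CPM in null and 177 CPM in control cells (7.07-fold lower), but with classes set by marker shares the log2 ratio was -0.83 and not called. The 58 control cells of this class lay in 1 sub-cluster led by Cxcl12, Fabp4, Igfbp5 and Sparc, beside the stem cell genes Hlf and Meis1, and stromal markers were its second-ranked list, so the class may not hold the same cells in both libraries. Hemoglobin moved with the gene in these classes, taking 0.697% of UMIs in null and 7.38% in control mature B-like cells, and 0.0663% in null and 2.29% in control stem and progenitor-like cells; its part in the result was not tested. Monocyte-like cells had 120 CPM in null and 71.2 CPM in control cells, within 2-fold. The macrophage-like control cells had 896 CPM (831 to 965) in a class where erythroid markers summed to 190517 CPM. Over all cells Blvrb was at 241 CPM in the null library and 750 CPM in the control library (3.11-fold lower).

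Fth1, the iron-oxidising chain of ferritin, had its highest levels in the null library in monocyte-like cells and in the control library in erythroid-like cells. Monocyte-like cells had 33501 CPM in the null library (88257 UMIs) and 1816 CPM in the control library (10073 UMIs), a ratio of 18.5 (18.1 to 18.8). Neutrophil-like cells without a stage had 23944 CPM in null and 2221 CPM in control cells, a ratio of 10.8 (10.4 to 11.1). GMP-like cells had 8051 CPM in null and 1529 CPM in control cells (5.27-fold). Immature neutrophil-like cells had 2684 CPM in null and 704 CPM in control cells (3.81-fold), and T-like cells 2415 CPM in null and 1098 CPM in control cells (2.20-fold).

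Unlike Hmox1, the Fth1 difference ran through most cells of these classes. In monocyte-like cells the 10th, 50th and 90th percentiles were 5643, 37608 and 87905 CPM in null cells and 1092, 1763 and 2921 CPM in control cells, so the null 10th percentile lay above the control 90th. In neutrophil-like cells without a stage they were 5486, 17206 and 55556 CPM in null cells and 1091, 2095 and 3664 CPM in control cells. GMP-like cells overlapped, with a 10th percentile of 1432 CPM in null cells and a 90th of 2324 CPM in control cells. The 3 null GMP-like sub-clusters lay at 2628, 7482 and 12782 CPM. The highest was led by Sod2, Ccl2, Ccl12 and Saa3, with no GMP marker among its leading genes. Monocyte markers were its second-ranked list, and its part in the GMP-like ratio was not tested. By sub-cluster, the 3 null monocyte-like groups lay at 11712, 26407 and 54014 CPM and the 7 control groups at or below 2805 CPM, without overlap. Immature neutrophil-like sub-clusters did not overlap either, at 1717 to 5298 CPM for 4 in the null library and 403 to 1430 CPM for 12 in the control library. Their cells did overlap, with a 10th percentile of 498 CPM in null cells and a 90th of 1562 CPM in control cells. The share of all genes whose sub-clusters separate in this way was not counted.

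**Figure D3:**
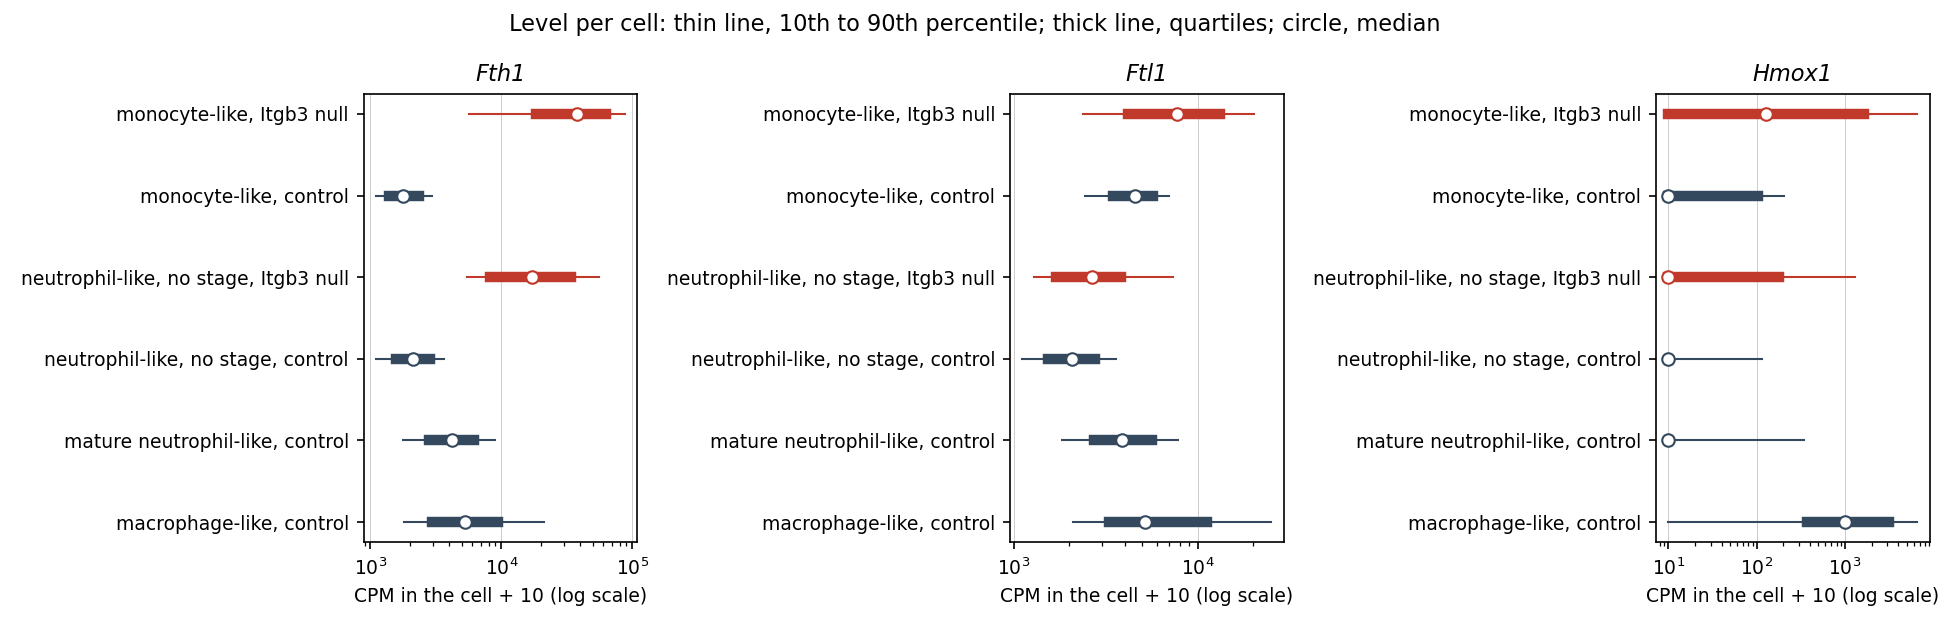
The level per cell, as CPM + 10 on a log axis, is drawn by class as the 10th to 90th percentile (thin line), the quartiles (thick line) and the median (circle), with the Itgb3 null library beside the control library. Fth1 medians in monocyte-like cells are 37608 CPM in null and 1763 CPM in control cells. Ftl1 medians in the same class are 7682 CPM in null and 4568 CPM in control cells.

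In the erythroid line Fth1 was lower in the null library, at 4957 CPM in null and 8741 CPM in control cells of the low range (within 2-fold), 3628 and 9253 CPM in the intermediate range (2.55-fold lower) and 1074 and 2181 CPM in the high range (2.03-fold lower). TMM scaling gave 1.87-fold and 1.29-fold lower for the intermediate and high ranges, so neither was then called. B precursor-like cells had 985 CPM in null and 1718 CPM in control cells, and mature B-like cells 1404 and 2206 CPM, all within 2-fold. The Fth1 ratio thus pointed up in the monocyte and granulocyte lines and in T-like cells, and down in the erythroid and B lines. Macrophage-like control cells were at 5509 CPM and plasmacytoid dendritic-like control cells at 7334 CPM.

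Ftl1, the light chain, moved less. It was at 7310 CPM in null and 4314 CPM in control monocyte-like cells, a ratio of 1.70 (1.66 to 1.73) that lay within 2-fold. Neutrophil-like cells without a stage had 4109 CPM in null and 2242 CPM in control cells (1.83-fold). GMP-like cells had 2727 CPM in null and 1962 CPM in control cells (1.39-fold), and immature neutrophil-like cells 1608 CPM in null and 1267 CPM in control cells (1.27-fold). The intermediate hemoglobin range was the only class compared in which Ftl1 was called, at 1317 CPM in null and 3821 CPM in control cells (2.90-fold lower), and it stayed called under TMM at 2.13-fold lower. The low range had 1593 CPM in null and 3017 CPM in control cells (1.89-fold lower), and the high range 1302 CPM in null and 2323 CPM in control cells (1.78-fold lower). Macrophage-like control cells had 6109 CPM, the highest Ftl1 level among control classes of at least 50 cells, followed by monocyte-like cells at 4314 CPM and mature neutrophil-like cells at 4032 CPM.

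Because the chains moved by different amounts, the number of Fth1 UMIs per Ftl1 UMI differed between the libraries in the myeloid classes. It was 4.58 (4.51 to 4.66) in null and 0.421 (0.411 to 0.431) in control monocyte-like cells. In neutrophil-like cells without a stage it was 5.83 in null and 0.991 in control cells, in GMP-like cells 2.95 and 0.779, in immature neutrophil-like cells 1.67 and 0.556, and in T-like cells 2.76 and 1.196. The B line ran the other way, at 0.974 in null and 1.40 in control B precursor-like cells and 1.35 and 1.66 in mature B-like cells. The erythroid ranges differed little, at 3.11 and 2.90 in the low, 2.75 and 2.42 in the intermediate and 0.825 and 0.939 in the high range. This ratio does not depend on the totals used for scaling, because both chains were counted in the same cells. As a share of all UMIs, both chains together took 4.08% in null and 0.613% in control monocyte-like cells.

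**Figure D4:**
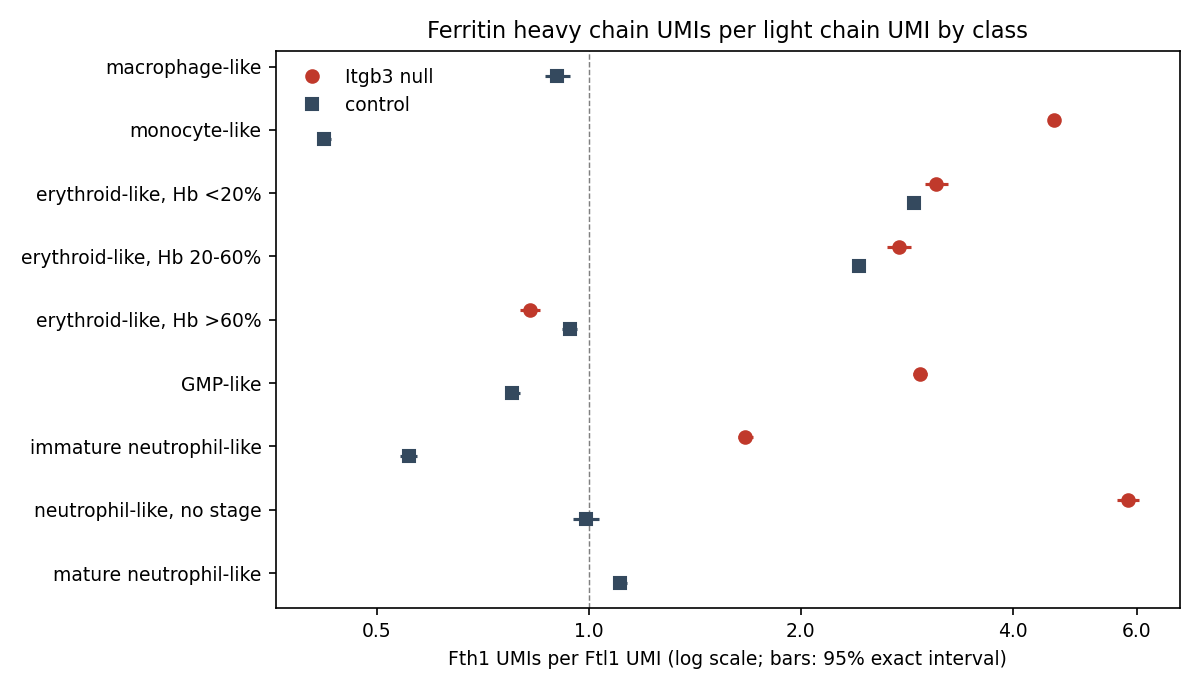
Fth1 UMIs per Ftl1 UMI (log axis) are plotted by class for the Itgb3 null and control libraries with 95% exact intervals. The null points lie to the right of the control points in monocyte-like cells (4.58 and 0.421) and close to them in erythroid-like cells of the low range (3.11 and 2.90).

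Tfrc, the transferrin receptor through which erythroblasts import iron, was lower in the null library in all 3 hemoglobin ranges. It was at 226 CPM in null and 509 CPM in control cells of the low range (2.26-fold lower), 365 and 889 CPM in the intermediate range (2.44-fold lower) and 99.2 and 234 CPM in the high range (2.36-fold lower). TMM scaling gave 2.20-fold, 1.79-fold and 1.51-fold lower, of which only the low range stayed past 2-fold. With classes set by marker shares the low-range log2 ratio was -0.80, and with the mitochondrial limit at 5% it was -0.72, neither of them called. B precursor-like cells, which divide rapidly, had 110 CPM in the null and 90.8 CPM in the control library, within 2-fold. Macrophage-like control cells had 281 CPM (245 to 321). Monocyte and neutrophil-like classes were at most 13.7 CPM in either library.

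Along the erythroid line, cells were also ordered in 7 bins by the share of UMIs taken by hemoglobin. In the bins 0 to 1%, 1 to 5%, 5 to 20%, 20 to 40%, 40 to 60%, 60 to 80% and 80 to 100% it was at 85.1, 418, 363, 391.9, 347, 207 and 15.5 CPM in null cells. The control cells had 293, 449, 743, 950, 831, 491 and 28.3 CPM. The libraries overlapped within counting error in the 1 to 5% bin, which holds 21 null cells, and were farthest apart by difference in the 20 to 40% bin, the highest control bin. The null values of the 1 to 5% and 20 to 40% bins overlapped in their intervals, so the null library had no single highest bin. Blvrb reached 3558 CPM in the 20 to 40% bin in control cells, where null cells had 1155 CPM, and the highest null values, 1579 and 1470 CPM in the 1 to 5% and 5 to 20% bins, overlapped. Ftl1 was at 1361 CPM in null and 4093 CPM in control cells of the 40 to 60% bin. The bin with the highest level depended on the totals, because hemoglobin UMIs crowd the total in late cells. With hemoglobin left out, Tfrc was highest in the 60 to 80% bin in both libraries, at 736 CPM in null and 1683 CPM in control cells. Blvrb and Ftl1 were then highest in the 80 to 100% bin in both libraries, Blvrb at 4606 CPM in null and 5922 CPM in control cells and Ftl1 at 13779 and 15952 CPM. Fth1 was then highest at 8794 CPM in the 80 to 100% bin in null cells and at 15470 CPM in the 20 to 40% bin in control cells.

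**Figure D5:**
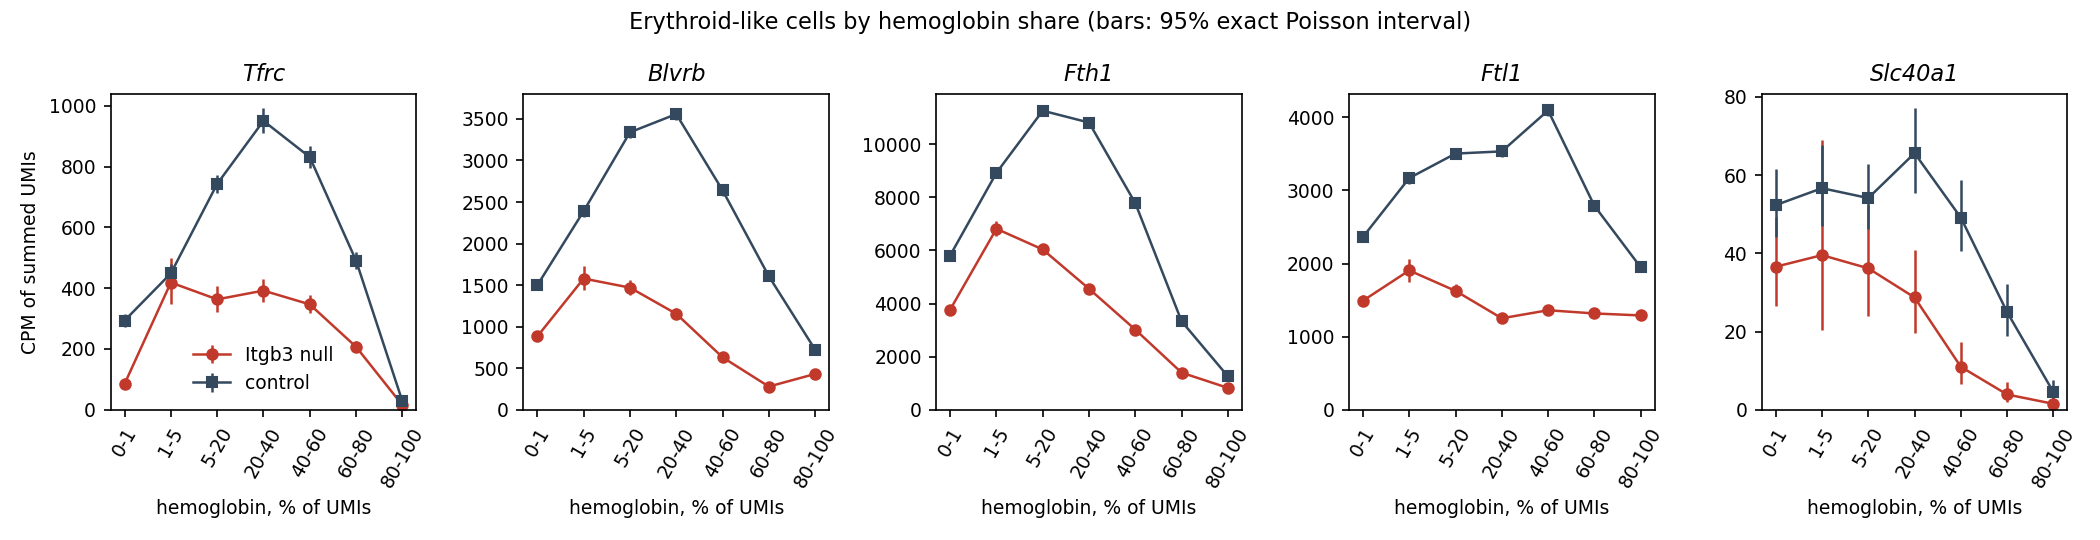
CPM of summed UMIs in erythroid-like cells is plotted against the hemoglobin share of a cell's UMIs for the Itgb3 null and control libraries, with 95% exact Poisson bars. The control Tfrc line peaks at 950 CPM in the 20 to 40% range, where the null library has 391.9 CPM, and the libraries are close in the 1 to 5% range.

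Slc11a1, the phagosomal metal pump, had its highest levels in monocyte-like, macrophage-like and neutrophil-like cells. Monocyte-like cells had 82.4 CPM in null (217 UMIs) and 33.0 CPM in control cells (183 UMIs), a ratio of 2.50 (2.04 to 3.06). Neutrophil-like cells without a stage had 74.9 CPM in null and 37.2 CPM in control cells, a ratio of 2.02 (1.42 to 2.85) that touched the 2-fold line. It was 1.96 without the richest cell of each library, 1.73 without a control sub-cluster rich in hemoglobin and 1.44 under TMM, so that call did not hold. Mature neutrophil-like control cells had 86.1 CPM (76.4 to 96.6) and macrophage-like control cells 63.6 CPM (47.2 to 83.8), which overlap within counting error. By sub-cluster the monocyte-like levels overlapped between the libraries, at 4.90 to 161 CPM in null and 0 to 117 CPM in control groups. Erythroid-like cells had at most 1.5 CPM in the low, intermediate and high ranges of both libraries.

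Slc40a1, the iron exporter ferroportin, was at 8.91 CPM over all null cells and 57.6 CPM over all control cells (6.46-fold lower, 5.74 to 7.30). The class with the highest level was the macrophage-like control class, at 846 CPM (783 to 912), which has no null counterpart in these clusters. Mature neutrophil-like control cells followed at 186 CPM (172 to 202), with a UMI in 18.1% of 1257 cells thinned to 1000 UMIs. Immature neutrophil-like cells, present in both libraries, had 14.02 CPM in null (97 UMIs) and 67.8 CPM in control cells (748 UMIs), 4.84-fold lower (3.91 to 6.04). Their sub-clusters did not overlap, at 2.72 to 21.4 CPM in the null library and 44.2 to 97.4 CPM in the control library. How many of all genes separate in this way was not counted. Macrophage markers moved with the gene in this class, summing to 17.3 CPM in null and 68.6 CPM in control cells, and 3 null and 39 control cells had at least 3 UMIs of C1qa, C1qb and C1qc; their part in the result was not tested.

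In neutrophil-like cells without a stage Slc40a1 was at 29.8 CPM in null and 105 CPM in control cells (3.54-fold lower, 2.36 to 5.50), and 4.02-fold lower without the control sub-cluster rich in hemoglobin. Monocyte-like cells, in which Hmox1 and Fth1 were high in the null library, had 0 Slc40a1 UMIs in 180 null cells and 9 UMIs (1.62 CPM) in 578 control cells, where the floor of 3 UMIs in the null cells is 1.14 CPM, so no fold is given. In the erythroid line the intermediate range had 18.01 CPM in null and 57.1 CPM in control cells (3.17-fold lower), and the low range 36.8 and 54.2 CPM, within 2-fold. Without cells that held a macrophage marker UMI, the intermediate levels were 18.1 and 42.1 CPM, 2.32-fold lower but under the 50 CPM minimum.

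The macrophage-like class had the highest CPM of both Hmox1 and Slc40a1 among control classes of at least 50 cells, and it was mixed with erythroid message. It did not hold most Slc40a1 UMIs, with 665 against 748 in immature and 621 in mature neutrophil-like control cells. Its markers included Vcam1 at 1779 CPM, C1qa at 1360 CPM, Fcna at 601 CPM, Axl at 558 CPM, Mrc1 at 535 CPM, Cd5l at 521 CPM and Spic, a regulator of iron-recycling macrophages, at 151 CPM. Hemoglobin took 56.5% of its UMIs. Of its 2 sub-clusters, that of 64 cells with 33.8% hemoglobin had 2534 CPM of Hmox1, 1618 CPM of Slc40a1 and 7899 CPM of Fth1, and that of 85 cells with 74.3% hemoglobin had 736, 238 and 3631 CPM. Leaving hemoglobin out of the total gave 3508 CPM of Hmox1 and 1943 CPM of Slc40a1 over both. After thinning, 66 of 122 cells (54.1%) had an Hmox1 UMI and 46 (37.7%) a Slc40a1 UMI. The exporter was found in 53.0% of the Hmox1-positive cells and 19.6% of the rest. Both sub-clusters were pooled for this, and both genes were higher in the one with less hemoglobin. The part of this mixture in the joint detection was not tested.

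Since no null sub-cluster was named macrophage-like, cells of any class with at least 3 UMIs of the complement genes C1qa, C1qb and C1qc were also set side by side, 71 in the null library and 372 in the control library. In these cells 2 of 7 iron genes were higher and 3 lower, against 35.5% of 3184 genes higher and 14.4% lower. The cells differed in kind: 46 of the 71 null cells were monocyte-like and 135 of the 372 control cells macrophage-like. Vcam1 was at 60.7 CPM in null and 622 CPM in control cells, Ly6c2 at 1987 and 266 CPM, and erythroid markers summed to 13550 and 106337 CPM. Hmox1 was at 739 CPM in null and 636 CPM in control cells, within 2-fold, but this value depended on the choices made. The log2 ratio was 0.22, and it was -0.28 under TMM, -0.24 without hemoglobin in the totals, 0.84 as a mean over cells and 1.25 with a minimum of 1 C1q UMI, which is past 2-fold. Without the richest cell of each library the levels were 408 CPM in null and 617 CPM in control cells. Slc40a1 was at 4.67 CPM in null (5 UMIs) and 343 CPM in control cells (1012 UMIs), 73.5-fold lower (31.4 to 227). On the log2 scale this was -6.20, and it lay between -4.89 with a minimum of 1 C1q UMI and -7.23 as a mean over cells.

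Among the other genes, Tfrc was at 26.2 CPM in null and 358 CPM in control C1q-positive cells (13.7-fold lower), and Blvrb at 162 and 1210 CPM (7.49-fold lower). Fth1 was at 20265 CPM in null and 5684 CPM in control cells (3.57-fold higher), and Ftl1 at 5204 and 4124 CPM (1.26-fold). Slc11a1 was at 60.7 CPM in null and 27.5 CPM in control cells (2.21-fold), a call that ended under TMM and without hemoglobin in the totals. Cd163, the receptor that takes up hemoglobin bound to haptoglobin, had 1 UMI in null and 204 UMIs (69.2 CPM) in control C1q-positive cells. The part of the different makeup of these cells in the ratios was not tested.

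A wider list of 49 other iron and heme genes, in 5 groups, was read by the same rule. In monocyte-like cells 4 of 21 with enough counts were higher and 2 lower, where 15.3% of all genes were higher and 15.7% lower, so the counts were near the background. The higher ones included ceruloplasmin, the ferroxidase that works beside ferroportin (Cp, 63.4 CPM in null and 0.721 CPM in control cells), and lipocalin 2, which binds bacterial iron carriers (Lcn2, 6978 and 92.3 CPM, 75.6-fold). Transferrin was lower (Trf, 15.2 CPM in null and 54.5 CPM in control cells). The regulators of Hmox1 lay within 2-fold: Nfe2l2, which encodes the activator NRF2, was at 116 CPM in null and 76.6 CPM in control cells, and Bach1, the heme-sensing repressor, at 72.9 and 94.3 CPM. Hmox2, the constitutive heme oxygenase, was at 93.8 CPM in null and 72.8 CPM in control cells.

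In the neutrophil line 5 of 14 were higher and 3 lower in cells without a stage, and 2 of 8 higher and 1 lower in immature cells. Over all genes 32.3% were higher and 9.82% lower in cells without a stage, and 11.5% higher and 12.0% lower in immature cells. Fbxl5, the iron-sensing ligase subunit that removes iron regulatory protein 2, was at 518 CPM in null and 114 CPM in control cells without a stage (4.56-fold higher) and at 136 and 36.8 CPM in immature cells (3.69-fold higher). Ncoa4, the receptor that delivers ferritin to lysosomes, was at 31.95 CPM in null and 189 CPM in control cells without a stage (5.92-fold lower) and at 61.4 and 137 CPM in immature cells (2.23-fold lower). Ncoa4 was also abundant in erythroid-like cells, and erythroid markers moved with it here, summing to 6882 CPM in null and 33763 CPM in control cells without a stage and to 2815 and 6011 CPM in immature cells; their part in the result was not tested. Keap1, the partner that holds NRF2 in check, was at 50.7 CPM in null and 11.5 CPM in control cells without a stage (4.40-fold higher). GMP-like cells had 2 of 17 higher, against 9.43% of all genes, Lcn2 at 4685 CPM in null and 358 CPM in control cells and haptoglobin (Hp) at 3263 and 678 CPM.

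In the erythroid line the counts were 2 of 24 higher and 4 lower in the low range, 0 of 15 higher and 3 lower in the intermediate range and 1 of 9 higher and 3 lower in the high range. Over all genes the shares higher and lower were 8.35% and 12.4% in the low, 13.4% and 27.1% in the intermediate and 24.4% and 28.4% in the high range, so these counts do not set the list apart. Aco1, which encodes iron regulatory protein 1, was at 63.5 CPM in null and 20.01 CPM in control cells of the low range (3.17-fold higher), and Steap3, the endosomal ferric reductase of erythroblasts, at 16.9 and 88.6 CPM (5.25-fold lower). Blvra, the alpha-type biliverdin reductase, was at 39.95 CPM in null and 86.5 CPM in control cells of the low range (2.17-fold lower). Slc11a2, which moves iron out of the endosome, was at 26.5 CPM in null and 89.3 CPM in control cells of the intermediate range (3.37-fold lower). Ncoa4 was at 79.0 CPM in null and 200 CPM in control cells of that range, and at 128 and 389 CPM in the high range (3.05-fold lower). Mitoferrin 1 (Slc25a37), which carries iron into mitochondria for heme synthesis, was at 495 CPM in null and 1200 CPM in control cells of the high range (2.43-fold lower). The gene that was higher in the high range was Pcbp1, an iron chaperone, at 53.6 CPM in null and 8.62 CPM in control cells (6.22-fold).

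In the remaining classes, stem and progenitor-like cells had 1 of 20 higher and 4 lower (9.16% and 10.2% of all genes) and B precursor-like cells 0 of 15 higher and 1 lower (8.80% and 9.12%). Mature B-like cells had 1 of 15 higher and 2 lower (11.3% and 13.4%), and T-like cells 0 of 10 higher and 1 lower (10.8% and 11.9%). In mature B-like cells the lower genes were Slc25a37, at 32.03 CPM in null and 109 CPM in control cells, and Ncoa4, at 24.02 and 57.8 CPM. In T-like cells Ncoa4 was at 12.8 CPM in null and 54.0 CPM in control cells, where erythroid markers summed to 3711 and 20606 CPM. Hemoglobin moved with these genes, taking 1.07% of UMIs in null and 6.84% in control T-like cells, and its part was not tested. C1q-positive cells had 7 of 28 higher and 11 lower, against 35.5% and 14.4% of all genes.

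Across 26 profiles of class and library, which share libraries, depth and the hemoglobin share, the genes closest to each iron gene among 3885 were named by Pearson correlation as a description. Hmox1 was closest to the macrophage and monocyte genes Fcgr1 (r = 0.83), Clec4a1 (0.83) and Adgre1 (0.81). Blvrb was closest to Cpox (0.94), an enzyme of heme synthesis, Prdx2 (0.93) and Ermap (0.93), and Tfrc was closest to Blvrb (0.90), Cpox (0.90) and Ubac1 (0.90). Ftl1 had Emilin2 (0.81), Hmox1 (0.80) and Csf1r (0.77), and Fth1 had Sdcbp (0.78), Ftl1 (0.75) and Tgm2 (0.73). Slc11a1 was closest to Pira2 (0.93), Tlr2 (0.88) and Ptafr (0.87). Slc40a1 was closest to the macrophage genes Fcna (0.75) and Cd5l (0.74) and to Ccr3 (0.73).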

How the data were processed

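UMI counts per gene and barcode were the authors' deposited filtered matrices. They came from Cell Ranger 3.0 on mm10, with Seurat also named, per the submitters' processing notes, and software version 3.1.0 per the file headers. The 7 genes and all lists were chosen with earlier results of these data known. Here, cells with at least 200 genes and at most 10% mitochondrial UMIs were kept (1307 null and 3479 control barcodes left out). The highest Scrublet scores were removed as doublets, at 0.8% per 1000 cells (71 null and 690 control). Cells were clustered with scanpy 1.11.5 and leidenalg 0.10.2 on 2000 variable genes without the 7 genes, hemoglobin or the pathway lists. Sub-clusters were named from 19 fixed marker lists, with a scoring rule set after the data were seen. Erythroid-like cells were split at 20% and 60% hemoglobin; these are ranges, not types. UMIs were summed per class and library and given as CPM with exact Poisson intervals (95%). Ratios have exact intervals from the split of UMIs, and shares have Clopper-Pearson intervals. PCR and cell-to-cell spread are outside these intervals, which cover counting error only. With 1 library per genotype no test across libraries is possible. Ratios and their intervals were run on Poisson counts simulated from class profiles. This is the model behind the intervals, so the run cannot test cell-to-cell spread. Pathway genes were named from the 2 furthest past 2-fold in each direction per class, and not all of these are given above. Higher but left out were Nfe2l2 (low range), Lcn2 (immature neutrophil-like), Slc25a28 (stem and progenitor-like) and Bola2 (mature B-like). Lower but left out were Glrx3 (monocyte-like), Prdx1 (intermediate range, B precursor-like), Slc25a37 (neutrophil-like without a stage), and Gclm and Slc48a1 (stem and progenitor-like). Some of the genes of C1q-positive cells and of all cells were also left out. The others named (Hmox2, Bach1, Nfe2l2 in monocyte-like cells, Ncoa4 in the intermediate range) were chosen after their values were seen. TMM factors came from edgeR 4.0.16. Alternatives covered scaling, cell filters, doublets, clustering, class rules and count minimums. Hairpins were searched in the GENCODE vM21 annotation; 31011 of 31053 gene IDs (99.86%) matched it.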

Additional observations from a re-analysis of the deposited data

Results flagged for a closer look

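Hmox1 differed in opposite directions between lineages. Its log2 ratio, Itgb3 null over control, was 4.86 in monocyte-like cells and -1.94 in erythroid-like cells of the intermediate hemoglobin range, 6.80 apart. It was called higher in 3 classes and lower in 1. In GMP-like cells, 1 of the 3, a single cell held 215 of 249 null UMIs, and without the richest cell of each library the levels were 10.3 CPM in null and 6.37 CPM in control cells and not called. The erythroid value rests on few null UMIs, 31 of them from 1 cell, and on control cells that also held macrophage marker UMIs. The difference between the lineages was not tested.

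Fth1 had a log2 ratio of 4.21 in monocyte-like cells and -1.35 in the intermediate hemoglobin range, 5.56 apart. It was called higher in 5 classes and lower in 2. The difference was not tested.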

How the results depend on the processing

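Over the 77 pairs of gene and class, the count lower in the null library was 15 and the count higher 10. The count lower lay between 8 under TMM factors and 22 with a minimum of 10 CPM, with 10 to 16 under the other alternatives. The count higher lay between 7 and 13 over all alternatives run. Not every alternative covered 77 pairs. Without a cell filter and with classes set by marker shares, 70 pairs were compared, 7 of them higher and 10 lower. In the erythroid ranges the count lower was 11 and became 4 under TMM and 7 without cells holding a macrophage marker UMI, a setting added after the data were seen. In C1q-positive cells the count higher was 2, and 1 under TMM and 1 without hemoglobin in the totals; the Hmox1 log2 ratio there lay between -0.28 and 1.25. The share of monocyte-like cells with an Hmox1 UMI was 66.1% in null and 31.7% in control cells unthinned, and 11.4% in control cells thinned to 2000 UMIs; in neutrophil-like cells without a stage it was 38.3% in null and 10.5% in control cells unthinned. Of 389 single values recomputed, 374 kept their direction, and no called value changed sign. In monocyte-like cells the log2 ratio lay between 4.70 and 5.16 for Hmox1 and between 3.86 and 4.73 for Fth1 over all alternatives run. Hmox1 in neutrophil-like cells without a stage was 1.59 with the mitochondrial limit at 5%. The causes were not tested beyond the construction of each alternative. A minimum of 10 C1q UMIs was not run, as it left 30 null cells. No paired analysis was possible because each genotype has 1 library. Depth limits genes under 50 CPM, such as Slc11a1 outside the myeloid classes.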
